A study of Mus musculus with 8 samples.

Results

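The 10 immediate early genes Fos, Fosb, Jun, Junb, Egr1, Ier2, Dusp1, Atf3, Nr4a1 and Btg2 were followed in RNA-seq of the mouse left ventricle. They were taken by symbol from a list of rapidly induced genes, and all 10 of 10 were found among the 55487 Ensembl genes counted. Left ventricles came from C57BL/6 mice aged 12 weeks. The 4 control animals are titled NLC and labelled wild-type, and the 4 KO animals are titled CM-ADGRF5-KO and labelled as lacking GPR116, another name of ADGRF5, in myocytes only. In either group the first pair of replicates (1 and 2) came from males and the last pair (3 and 4) from females. The promoter that drives the deletion, and any allele of it in controls, were not given in the sources used here. It was asked which ventricular transcripts differ once cardiomyocytes lack this adhesion G protein-coupled receptor, which the series title ties to Gαq.

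Immediate early genes are transcribed from factors already present in the cell, within minutes of a stimulus and without new protein synthesis. Growth factors, Gαq-coupled and other receptors, stretch and stress reach them through MAP kinases, calcium and cAMP, which act on SRF with its ternary complex partners and on CREB. Their mRNAs are short-lived, so levels in dissected tissue also follow handling, anaesthesia and the delay before RNA is preserved. Fos, Fosb, Jun, Junb and Atf3 encode bZIP proteins, of which the Fos and Jun families pair to form AP-1. Egr1 encodes a zinc finger factor, Nr4a1 an orphan nuclear receptor and Ier2 a small nuclear protein. Dusp1 encodes a phosphatase that switches MAP kinases off, and Btg2 an antiproliferative protein that promotes mRNA deadenylation.

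Proximal promoters of 5 members are shown, chosen to cover the members with the cAMP response element (CRE), the TATA box or the EGR site, because most of the members varied together across libraries. Each run is the stretch before the transcription start in RefSeq on GRCm38.p6, read 5′ to 3′ on the strand of the gene and ended before any annotated exon. Capitals mark exact matches on either strand to the CRE (TGACGTCA), its short core (TGACG, which lies inside the CRE and reads CGTCA on the other strand), the TATA box (TATAAA) or the EGR site (GCGGGGGCG).
Fos, chr12:85473640-85473889, plus strand: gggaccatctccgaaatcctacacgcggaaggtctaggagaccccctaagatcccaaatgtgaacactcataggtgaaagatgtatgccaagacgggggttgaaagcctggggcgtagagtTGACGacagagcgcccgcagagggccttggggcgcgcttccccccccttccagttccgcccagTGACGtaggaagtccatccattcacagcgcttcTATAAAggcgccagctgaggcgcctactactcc
Fosb, chr7:19310052-19310295, minus strand: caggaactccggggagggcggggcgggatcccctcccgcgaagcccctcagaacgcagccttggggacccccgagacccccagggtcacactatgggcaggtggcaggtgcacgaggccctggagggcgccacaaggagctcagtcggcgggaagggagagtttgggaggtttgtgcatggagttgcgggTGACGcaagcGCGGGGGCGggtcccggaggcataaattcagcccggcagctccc
Nr4a1, chr15:101266596-101266845, plus strand: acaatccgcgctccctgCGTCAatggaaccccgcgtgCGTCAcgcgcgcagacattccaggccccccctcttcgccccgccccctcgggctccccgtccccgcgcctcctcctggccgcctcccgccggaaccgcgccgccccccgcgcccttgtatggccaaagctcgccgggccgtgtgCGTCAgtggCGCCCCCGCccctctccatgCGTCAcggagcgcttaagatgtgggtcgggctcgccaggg
Dusp1, chr17:26508520-26508722, minus strand: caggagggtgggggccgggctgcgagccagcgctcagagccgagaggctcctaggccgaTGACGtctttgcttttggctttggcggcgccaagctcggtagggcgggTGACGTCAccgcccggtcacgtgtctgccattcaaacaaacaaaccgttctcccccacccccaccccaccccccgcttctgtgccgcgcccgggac
Btg2, chr1:134079156-134079405, minus strand: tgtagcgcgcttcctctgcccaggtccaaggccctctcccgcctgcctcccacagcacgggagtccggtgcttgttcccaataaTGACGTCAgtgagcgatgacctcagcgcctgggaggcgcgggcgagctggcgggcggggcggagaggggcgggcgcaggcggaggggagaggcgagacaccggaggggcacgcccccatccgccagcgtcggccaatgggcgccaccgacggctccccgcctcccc

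RefSeq promoter entries were matched for 8 of the 10 members; Egr1 and Ier2 had no match. In the 250 bases before the start, the CRE was found in 2 of the 8 (Dusp1 and Btg2), against 1.55% of 32851 promoters. The short core was found in 7 of the 8, all but Jun, against 17.8% of promoters. It occurred 4 times in Nr4a1, at 233, 213, 69 and 40 bases before the start. The EGR site was found in 2 of the 8 (Fosb and Nr4a1), against 2.57%. Fos alone held the TATA box, 33 bases before its start, against 12.4%. The AP-1 site TGACTCA and the CArG box, searched by its name pattern, were in 0 of the 8, against 4.46% and 1.47% of promoters. Sites farther than 250 bases before the start were not searched, nor was any window of Egr1 or Ier2, so these members may hold such sites elsewhere. These matches describe letters in a window and show no binding.

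Fos lies at 85473890 to 85477273 on chromosome 12 of GRCm38, Fosb at 19302696 to 19310051 on chromosome 7, Jun at 95049034 to 95052222 on chromosome 4 and Junb at 84974484 to 84978718 on chromosome 8. Ier2 lies at 84661331 to 84662852 on chromosome 8, Dusp1 at 26505590 to 26562128 on chromosome 17 and Nr4a1 at 101254269 to 101274795 on chromosome 15. Atf3 lies at 191170296 to 191218039 and Btg2 at 134075170 to 134079120, both on chromosome 1, and Egr1 is on chromosome 18. Reads were counted over annotated exons, and all 10 are protein-coding. Exons of Jun, Junb and Dusp1 share 232, 173 and 11 bases with opposite-strand genes (Junos, Prdx2 and Ergic1), which is 7.3%, 7.5% and 0.3% of their exon length. Since the strand setting of the counting is not known, those reads may not be separated.

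Libraries held 25.33 to 39.62 M gene reads, the deepest being KO replicate 1, and mitochondrially encoded genes took 17.4% to 21.9% of them. Every member had between 61 reads (Fosb, control replicate 4) and 4888 reads (Dusp1, KO replicate 1) in each library. The targeted gene Adgrf5 was at 218 to 257 CPM (read counts scaled to library size) in the controls and 203 to 239.8 CPM in the KO libraries (log2 fold change of -0.05, SE 0.0754, edgeR adjusted p = 0.782). Other ventricular cells, endothelium among them, also express it, so whole tissue does not check the genotype labels. KO replicate 1 stood apart for the members, as shown next, and values without it are given beside the results that it moves most. In bulk tissue, fewer cells of a type and less RNA per cell cannot be told apart. The labels call the samples biological replicates. The p-values of the contrasts set differences against the spread between them, though hardly gene by gene in the fit with no filter on low counts.

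**Figure D1:**
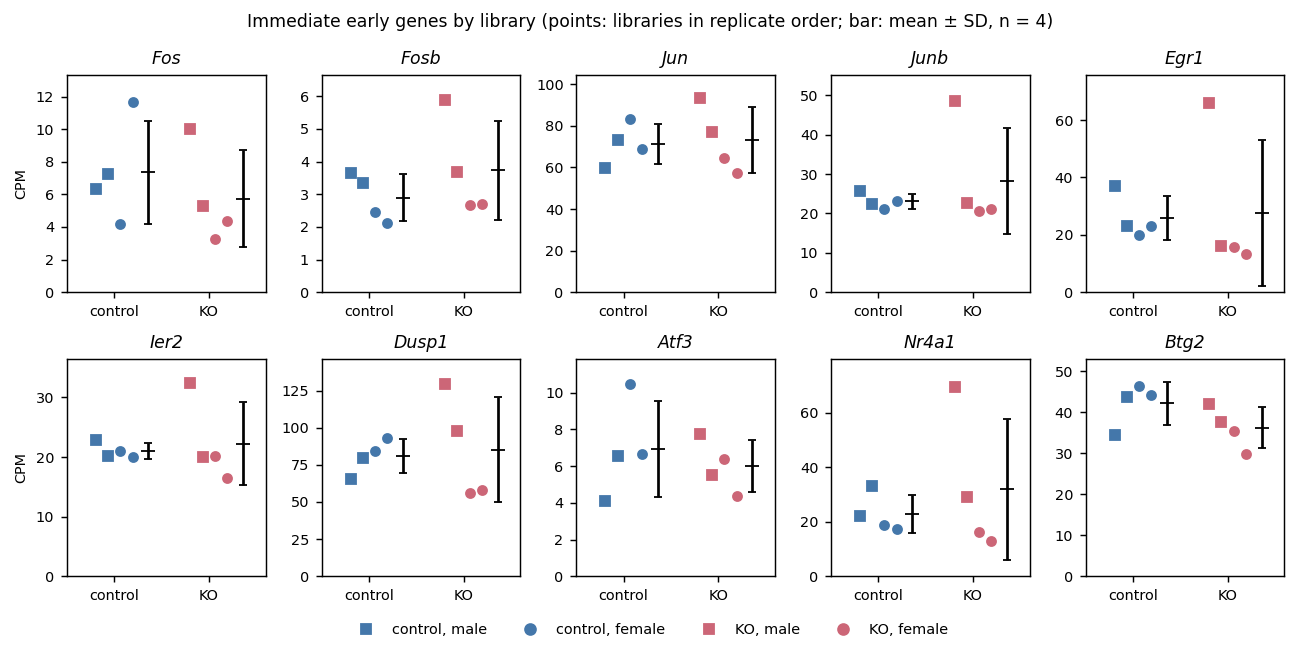
Normalised level (CPM, linear axes from 0) of each immediate early gene in the 8 libraries, squares for males and circles for females, in replicate order within control and KO, with the group mean ± SD (n = 4) beside the points. KO replicate 1, a male, is the highest point for 7 genes, and control and KO points overlap for all 10.

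Per kb of merged exon, the scale on which genes can be compared, Dusp1 and Jun were the most abundant members. Dusp1 averaged 25.1 ± 7.34 CPM per kb and Jun 22.6 ± 3.83 CPM per kb over all 8 libraries (SD, n = 8), less apart than their spread. Btg2 at 14.3 ± 2.08, Ier2 at 14.2 ± 3.06 and Junb at 11.1 ± 4.07 CPM per kb formed a next tier of overlapping levels. Nr4a1 and Egr1 averaged 7.79 ± 5.20 and 5.97 ± 3.89 CPM per kb, and Atf3 and Fos 3.01 ± 0.935 and 2.78 ± 1.26 CPM per kb, again with neighbours inside each other's spread. Fosb was lowest at 0.530 ± 0.189 CPM per kb, and its highest library, at 0.940, lay under the lowest of Fos, at 1.39.

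Among the AP-1 genes, Fos, the founding partner of Jun, was at 6.33, 7.22, 4.18 and 11.7 CPM in control replicates 1 to 4 and at 10, 5.29, 3.27 and 4.36 CPM in KO replicates 1 to 4. Its 2 high libraries were control replicate 4 and KO replicate 1, one in each group. Fosb, a close relative whose products persist longer with repeated stimulation, was at 3.64, 3.34, 2.46 and 2.11 CPM among controls and 5.87, 3.67, 2.67 and 2.71 CPM in KO. Within each sex both KO libraries lay above both controls, but the nearest values (3.64 and 3.67 in males, 2.46 and 2.67 in females) were closer than the counting error of these libraries, which was 9.71% to 11.7% of the level. Jun was at 59.7, 73.2, 83.3 and 69.1 CPM across controls and 93.3, 77.3, 64.7 and 57.2 CPM in KO, so that KO males lay above and KO females below the controls of their sex.

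Junb, a Jun relative that often restrains it, was at 25.7, 22.3, 21.2 and 23.1 CPM among controls and 48.5, 22.6, 20.6 and 21.2 CPM in KO. KO replicate 1 was 2.17 times the mean of the other 7 libraries, which all lay between 20.6 and 25.7 CPM. Atf3, a stress-induced repressor of the ATF/CREB family, was at 4.12, 6.53, 10.5 and 6.67 CPM across controls and 7.72, 5.53, 6.39 and 4.36 CPM in KO. Here the highest and the lowest library were both controls.

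Egr1, a readout of SRF and ternary complex factor activity in many tissues, was at 37.1, 23.0, 19.9 and 23.2 CPM among controls and 65.8, 15.9, 15.9 and 13.3 CPM in KO. KO replicate 1 was the highest of all 8 and the other 3 KO libraries were the lowest. Nr4a1, which responds to calcium and cAMP signals in muscle, was at 22.2, 33.0, 18.8 and 17.4 CPM across controls and 69.3, 29.1, 16.0 and 12.9 CPM in KO. Its 4 male libraries all lay above its 4 female ones. Ier2 was at 22.9, 20.2, 20.9 and 20.0 CPM among controls and 32.3, 20.0, 20.2 and 16.5 CPM in KO, with KO replicate 1 above and KO replicate 4 below a narrow band of the other 6.

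Dusp1, the negative regulator of MAP kinases, was at 65.7, 79.7, 84.5 and 93.4 CPM across controls and 129, 97.9, 56.0 and 58.0 CPM in KO. Both KO males lay above and both KO females below all 4 controls. Btg2 was at 34.5, 43.7, 46.3 and 44.1 CPM among controls and 41.9, 37.7, 35.3 and 29.8 CPM in KO, and all 4 KO libraries lay under controls 2, 3 and 4.

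With both sexes pooled, no member was called between KO and control. The edgeR quasi-likelihood test with sex as a term called 0 of 10 at a Benjamini-Hochberg adjusted p under 0.05, against 15 of 14695 genes tested (0.102%). At an unadjusted p under 0.05 it also gave 0 members, against 11.9% of genes. Without KO replicate 1 it gave 3 (Fos, Egr1 and Btg2, all lower in KO), and the share of all genes in that fit is not given here. At an adjusted p under 0.05 DESeq2 and limma voom called 0 members each, against 1.01% and 0.0885% of genes. With no filter on low counts edgeR also called 0, against 2.22% of genes. The estimates were positive for 6 members and negative for 4, with a median log2 fold change of 0.01 beside -0.01 for all genes. No member had 4 KO libraries on one side of the 4 controls, which 6.25% of genes did. All 10 members passed the filter on low counts.

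Fosb had the smallest adjusted p of the members, with 2.89 ± 0.720 CPM across controls and 3.73 ± 1.5 CPM in KO libraries (SD, n = 4 each; log2 fold change 0.35, SE 0.176, edgeR adjusted p = 0.442). Btg2 was at 42.1 ± 5.22 and 36.2 ± 5.05 CPM (log2 fold change of -0.22, SE 0.121). Fos was at 7.36 ± 3.16 and 5.73 ± 2.96 CPM (log2 fold change of -0.42, SE 0.358). Dusp1, at 80.8 ± 11.5 and 85.3 ± 35.1 CPM, had a log2 fold change of 0.00396 (SE 0.228), with a 95% interval from its SE of -0.44 to 0.45. For Jun the interval ran from -0.26 to 0.30 and for Egr1 from -0.78 to 0.70. These intervals use a normal quantile and are narrower than the test implies. That of Fosb, from 0.00533 to 0.695, lay wholly on the positive side at an unadjusted edgeR p of 0.0740. The remaining estimates were 0.25 for Junb, 0.28 for Nr4a1, 0.07 for Ier2 and -0.18 for Atf3, none past the test.

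Gene by gene, the KO libraries differed from each other more than the controls did for most members, a spread that rested largely on KO replicate 1. The SD of log2 CPM was wider among KO than among control libraries for 9 of the 10 members, against 48.2% of all genes. It was over 2 times as wide for 5 members, against 13.5% of genes: 5.07 times for Junb, 4.65 for Ier2, 2.77 for Dusp1, 2.74 for Egr1 and 2.64 for Nr4a1. Atf3 was the exception, at 0.634 times. The median ratio was 2.10 for the members and 0.969 for all genes. Without KO replicate 1, an omission chosen after seeing the data, the SD was wider in KO for 4 members (Jun, Ier2, Dusp1 and Nr4a1), against 39% of genes, and over 2 times as wide for 1 (Dusp1, 2.12 times), against 10.3%. The median ratio was then 0.813 for the members and 0.821 for all genes, and Junb (0.587) and Egr1 (0.385) were narrower in KO. These ratios rest on 3 or 4 libraries a group and were not tested.

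**Figure D2:**
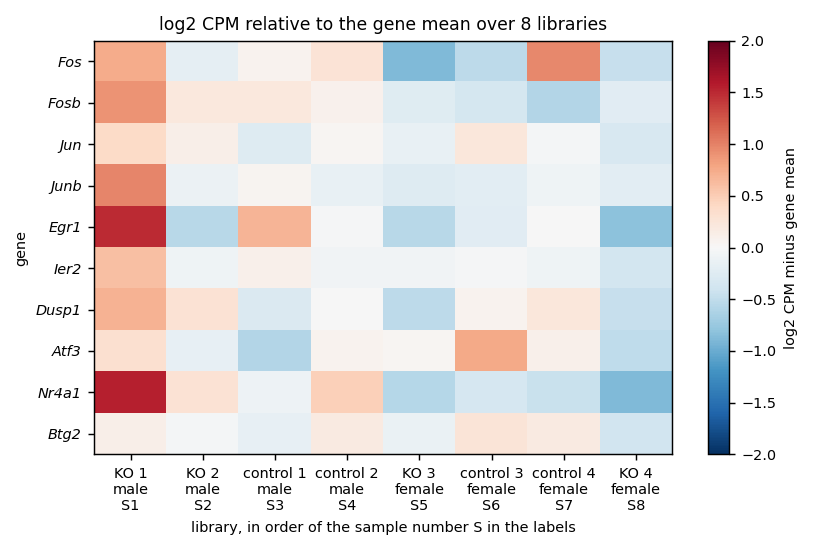
Deviation of each immediate early gene (rows) from its own mean log2 CPM over the 8 libraries, with libraries (columns) in the order of the S number in the labels; the colour bar is in log2 units. KO replicate 1 is above the gene mean for all 10 genes, KO replicate 4 for 0 and KO replicate 3 for 1.

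Library by library, the average level of the members was spread more widely in KO than in controls. Averaged over the 10, after subtracting the 8-library mean from every gene, the log2 level was -0.03, 0.09, -0.04 and 0.02 in control replicates 1 to 4. In KO replicates 1 to 4 it was 0.77, -0.02, -0.33 and -0.46. KO replicate 1 was above the gene mean for 10 members, KO replicate 3 for 1 and KO replicate 4 for 0, while each control was above it for 4 to 6. The group means were 0.01 ± 0.0560 in controls and -0.01 ± 0.553 in KO (SD, n = 4 each). Leaving out KO replicate 1 moved the KO minus control difference of this average from -0.02 to -0.28. In the other KO libraries the average still ran from -0.46 to -0.02, a wider range than the -0.04 to 0.09 of the controls.

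KO replicate 1 was the highest library for 7 members (Fosb, Jun, Junb, Egr1, Ier2, Dusp1 and Nr4a1), while it was the highest for 20.9% of all genes. Against the mean of the other 7 libraries it was 3.25 times higher for Nr4a1, 3.11 for Egr1, 2.17 for Junb, 2.00 for Fosb, 1.69 for Dusp1, 1.65 for Fos and 1.61 for Ier2. The values were smaller for Jun (1.35), Atf3 (1.23) and Btg2 (1.08). At the other end, KO replicate 4 was the lowest library for Jun, Egr1, Ier2, Nr4a1 and Btg2, where 9.87% of all genes had it lowest. KO replicate 3 was lowest for Fos, Junb and Dusp1. The labels number the samples S1 to S8, with all males at 1 to 4 and all females at 5 to 8, KO replicate 1 at 1 and KO replicate 4 at 8. What the number stands for is unknown here, so sex and this order cannot be told apart.

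Split by sex, the KO estimates of the members pointed in opposite directions, without any passing edgeR's test. In males all 10 estimates were positive (median log2 fold change 0.40, beside 0.01 for all genes, of which 51.4% were positive). In females 9 were negative and Fosb alone was positive (median -0.40, beside -0.01, with 47.3% of all genes positive). The edgeR test called 0 members in males, against 0.0408% of genes, and 0 in females, where it called 0% of genes. At an unadjusted p under 0.05 it gave 3 members in males (Jun, Dusp1 and Nr4a1), against 17.5% of genes. It gave 4 in females (Fos, Jun, Dusp1 and Btg2), against 5.12% of genes. With single libraries left out the median of the members ran from 0.00265 to 0.66 in males and from -0.55 to -0.29 in females. The male median was lowest without KO replicate 1 and highest without KO replicate 2.

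**Figure D3:**
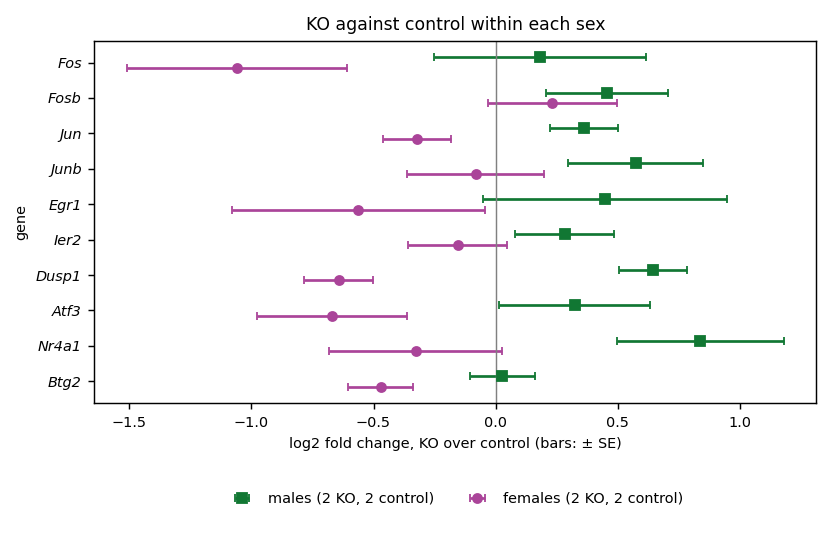
Log2 fold change of KO over control (x axis; bars ± SE from the edgeR fit) for each immediate early gene in males and in females, 2 KO and 2 control libraries per sex. Male estimates run from 0.03 (Btg2) to 0.84 (Nr4a1) and female ones from -1.06 (Fos) to 0.23 (Fosb).

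Dusp1 showed the widest such split relative to its error. In males the mean was 72.7 CPM among controls and 114 CPM in KO (log2 fold change of 0.64, SE 0.141, edgeR adjusted p = 0.152). In females it was 89.0 and 57.0 CPM (log2 fold change of -0.64, SE 0.141, edgeR adjusted p = 0.775). The difference between the sexes, tested directly, was 1.29 (SE 0.200, unadjusted p = 0.000105, edgeR adjusted p = 0.385). DESeq2 on the same counts called Dusp1, and no other member, in all 3 of these comparisons: at an adjusted p of 0.00383 in males (2.7% of genes called), 0.0211 in females (0.116%) and 4.93e-06 for the difference (0.116%). The test by limma voom called 0 members in each of the 3. With no filter on low counts, edgeR called 4 members in males (Junb, Egr1, Dusp1 and Nr4a1), against 3.6% of 27953 genes. It then called 4 in females (Fos, Egr1, Dusp1 and Btg2), against 0.991%, and 5 for the difference (Fos, Jun, Egr1, Dusp1 and Nr4a1), against 0.869%. The male estimates hardly moved, but dropping the filter took their SE from 0.498 to 0.132 for Egr1 and from 0.341 to 0.132 for Nr4a1. For Fosb the SE stayed (0.248 and 0.247). With no filter the male SE was also near equal for Junb (0.134), Egr1 (0.132), Ier2 (0.138) and Nr4a1 (0.132). In the main fit the SE of these 4 ran from 0.202 to 0.498. Calls without the filter thus followed little of each gene's own spread between libraries. Why the SE fell was not tested. Without KO replicate 1 the difference for Dusp1 was 1.07 (SE 0.172).

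Fos had the lowest female estimate, with means of 7.94 CPM across controls and 3.81 CPM in KO (log2 fold change of -1.06, SE 0.451). It rested on control replicate 4, without which it was -0.14 (SE 0.357), and it was -1.62 (SE 0.322) without control replicate 3. Nr4a1 had the highest male estimate, at 27.6 CPM among controls and 49.2 CPM in KO (log2 fold change of 0.84, SE 0.341). Without KO replicate 1 it was 0.07 (SE 0.229). Egr1, at 30.1 and 40.9 CPM in males, turned from 0.45 (SE 0.498) to -0.92 (SE 0.274) when that library was left out.

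The difference of the KO estimates between sexes was positive for all 10 members, with a median of 0.84 beside 0.02 for all genes. The edgeR test of this difference called 0 of 10, against 0% of genes, and 5 members had an unadjusted p under 0.05 (Jun, Dusp1, Atf3, Nr4a1 and Btg2), against 7.46% of genes. With single libraries left out the median difference ran from 0.41 to 1.15, the highest without KO replicate 2. DESeq2 called 1 member and limma voom 0. Leaving out KO replicate 1 moved the median from 0.84 to 0.41 for the difference and from 0.40 to 0.00265 for males, with 5 male estimates then positive and 5 negative. The female contrast does not use that library for its means, and its median stayed at -0.40.

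In males, both KO libraries lay above both controls for 3 members (Fosb, Jun and Dusp1), against 25.1% of genes, and below for 0, against 25.9%. In females, both KO libraries lay above for 1 member (Fosb), against 17.1%, and below for 6 (Jun, Egr1, Dusp1, Atf3, Nr4a1 and Btg2), against 17.2%. With 2 libraries on each side such separation is frequent, as those shares show.

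Levels were also compared between males and females over both genotypes, and no member passed the edgeR test. The estimate for Nr4a1 was 1.19 higher in males on the log2 scale (SE 0.303, edgeR adjusted p = 0.188) and that for Fosb 0.73 (SE 0.176, adjusted p = 0.176), and for both all 4 males lay above all 4 females, as they did for 3.84% of genes (the reverse held for 0 members and 3.03% of genes). The estimate for Egr1 was 0.99 (SE 0.382, adjusted p = 0.332). Without KO replicate 1 these were 0.77 for Nr4a1 (SE 0.151), 0.54 for Fosb (SE 0.159) and 0.35 for Egr1 (SE 0.168), Junb went from 0.45 to 0.11, and the median of the members fell from 0.37 to 0.10. The edgeR test called 0 members, against 0.299% of genes, and 3 had an unadjusted p under 0.05 (Fosb, Egr1 and Nr4a1), against 12.8%. When single libraries were left out the latter count was 2 to 6 (5 without KO replicate 2 and 6 without control replicate 4). The share of all genes in those fits is not given here. DESeq2 called Fosb (adjusted p = 0.0401), where it called 1.79% of genes, and limma voom called 0, against 0.272%. With no filter on low counts edgeR called 5 (Fosb, Junb, Egr1, Dusp1 and Nr4a1), against 2.65%. The SE was then 0.101 for Egr1 and 0.102 for Nr4a1, and 0.182 for Fosb. Of the 10 estimates 9 were positive, that is higher in males, with Atf3 the exception at -0.19 (SE 0.261).

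Covariation was examined over the 45 pairs of members on log2 CPM, with exact two-sided permutation tests over the 8 libraries. Pearson's r was positive for 43 pairs, with a median of 0.61 and a range of -0.07 to 0.93. Of the pairs, 17 had an unadjusted p under 0.05 and 2 passed after Benjamini-Hochberg adjustment over the 45. Egr1 and Ier2 had r = 0.93 (exact permutation p = 0.00149, adjusted p = 0.0391) and Spearman's rho = 0.71 (exact permutation p = 0.0576, adjusted p = 0.240). Junb and Egr1 had r = 0.90 (exact permutation p = 0.00174, adjusted p = 0.0391) and rho = 0.83 (exact permutation p = 0.0154, adjusted p = 0.231). No pair passed by rho.

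These relations rested in part on KO replicate 1. For the 2 pairs that passed, r without KO replicate 1 alone was 0.81 for Egr1 and Ier2 and 0.85 for Junb and Egr1. Leaving out the 2 libraries farthest from the median of the first gene dropped control replicate 1 as well as KO replicate 1. Over the remaining 6 libraries r was 0.68 for Egr1 and Ier2 and 0.55 for Junb and Egr1. Without KO replicate 1 the median over all pairs was 0.31, with 34 positive. Taken as deviations from the mean of each sex and genotype, which removes both labels, the median was 0.56, with 42 pairs positive. With 2 libraries in each sex and genotype the 2 deviations mirror each other, so each adds only 1 separate value. KO replicate 1 is among these libraries, so this median is not free of it. All pairs share the same 8 libraries and their scaling, so they are not independent of each other.

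**Figure D4:**
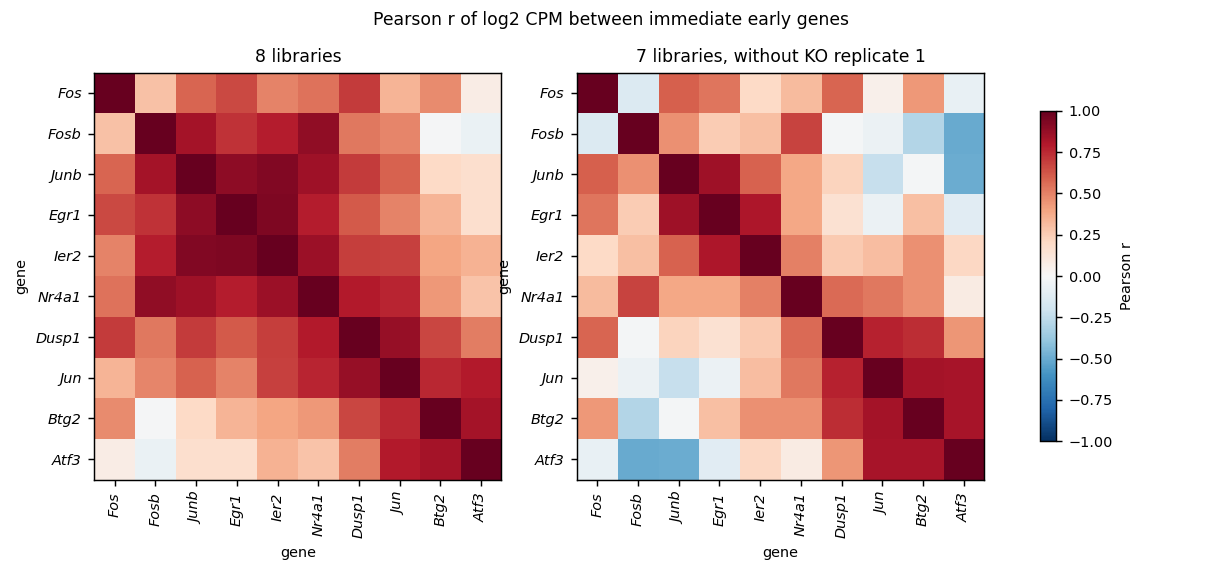
Pearson's r of log2 CPM for every pair of immediate early genes, over all 8 libraries (left) and over the 7 without KO replicate 1 (right); the colour bar runs from -1 to 1. The median over 45 pairs is 0.61 on the left and 0.31 on the right, and the block of Jun, Btg2 and Atf3 keeps r of 0.826 to 0.834 on the right.

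Grouped after their values were seen, some members were more alike than others. Fosb, Junb, Egr1, Ier2 and Nr4a1 had r of 0.73 to 0.93 over their 10 pairs, and of 0.25 to 0.85 without KO replicate 1. Jun, Atf3 and Btg2 had r of 0.75 to 0.83 over their 3 pairs, and the range without KO replicate 1 was 0.826 to 0.834. Between the first block and Atf3 or Btg2, r lay between -0.07 and 0.43 over 10 pairs. The blocks were not separate: Jun had r of 0.49 to 0.76 with the first block, highest with Nr4a1, and its highest r of all, 0.87, with Dusp1. Taken as deviations from the mean of each sex and genotype, Nr4a1 had r of 0.73 with Atf3 and 0.74 with Btg2. Atf3 and Btg2 were both highest in control replicate 3 and stood at only 1.23 and 1.08 times the mean of the other 7 libraries in KO replicate 1. Each member's r with the mean of the other 9 ran from 0.32 for Atf3 to 0.91 for Ier2.

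Of 9912 other genes that averaged 5 CPM or more, the 10 most like the members' average over the 8 libraries were Pgs1 (r = 0.97), Itgb2 (0.96), Tex264 (0.95), Med9 (0.94), Cebpd, Hnrnpa0, Nfkbia, Lmo2 and Coro1a (each 0.93) and Zfp775 (0.92). Cebpd, a rapidly induced C/EBP factor, was at 10.9, 16.5, 12.5 and 17.0 CPM across controls and 30.8, 17.7, 9.58 and 8.64 CPM in KO. Nfkbia, the NF-κB target that encodes its inhibitor IκBα, was at 35.8, 42.3, 43.4 and 44.5 CPM among controls and 77.9, 49.1, 32.2 and 34.8 CPM in KO. In both, KO replicate 1 was highest and the KO females lowest. Itgb2, the leukocyte β2 integrin, was at 6.71, 7.79, 7.69 and 6.92 CPM across controls and 10.5, 6.85, 6.11 and 5.15 CPM in KO, and Coro1a, a leukocyte coronin, had its lowest level (9.66 CPM) in KO replicate 4 and its highest (21.8 CPM) in KO replicate 1. The least alike were Ints14, Skp1a and Zfp157 (each r = -0.98), Taf1 (-0.96) and Parva (-0.94). With this many genes and 8 libraries some r of this size arise without any relation, so no p is given.

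Of 50 other rapidly induced genes, 47 were tested, and their library averages followed the members in part. The average was 0.37 in KO replicate 1 and -0.24 in KO replicate 4, and between -0.15 and 0.11 in the other 6. KO replicate 1 was highest for 24 of the 47. Between KO and control edgeR called 0 of 47 (3 at an unadjusted p under 0.05, against 11.9% of genes), with 31 estimates positive and a median of 0.09. In males it called 1, Per1, with a median of 0.24 (18 at an unadjusted p under 0.05, against 17.5% of genes), and in females 0, with a median of -0.19 (8, against 5.12%). For the difference between sexes 34 of 47 estimates were positive (median 0.48) and edgeR called 0, with 17 at an unadjusted p under 0.05, against 7.46% of genes. DESeq2 called more of them. Between KO and control it called Ier3 alone, against 1.01% of genes. In males it called 6 (Cebpd, Id1, Ier3, Nfkbia, Per1 and Rhob), against 2.7% of genes, and in females 0, against 0.116%. For the difference it called 5 (Cebpd, Nfkbia, Per1, Rhob and Zfp36), against 0.116%. With Dusp1, 6 of the 15 genes that DESeq2 called for the difference among all genes came from these rapidly induced genes. The list was drawn up with earlier results of these data known, so this count is a description. The test by limma voom called Per1 in males and no other in these 4 comparisons.

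Per1, a clock gene that cAMP and glucocorticoids induce rapidly, was at 46.0 and 67.3 CPM in control males and 157 and 151 CPM in KO males. It rose in KO males by 1.45 on the log2 scale (SE 0.158, edgeR adjusted p = 0.0298). The call ended in 5 of the 8 fits without 1 library: the edgeR adjusted p was 0.322 without KO replicate 1, 0.0951 without KO replicate 2, 0.102 without control replicate 1 and 0.0643 and 0.0662 without KO replicates 3 and 4, with estimates of 1.19 to 1.47. In females it was at 105 and 109.6 CPM among controls and 86.6 and 97.9 CPM in KO (log2 fold change of -0.22, SE 0.154). Ier3, a stress-induced survival gene, was at 21.9, 22.1, 35.8 and 28.6 CPM across controls and 36.1, 31.1, 42.4 and 37.6 CPM in KO (log2 fold change of 0.46, SE 0.102, edgeR adjusted p = 0.185). Myc, at 3.97, 2.65, 2.80 and 1.97 CPM among controls and 5.61, 5.53, 3.05 and 2.71 CPM in KO, had a log2 fold change of 0.52 (SE 0.188, edgeR adjusted p = 0.350).

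Among 14 tested AP-1 partners outside the 10, edgeR, DESeq2 and limma voom each called 0 in the 5 comparisons. At an unadjusted edgeR p under 0.05 there were 0 between KO and control, against 11.9% of genes, and 2 in males, against 17.5%. Jund, the constitutive Jun relative, was at 88.1, 106, 124 and 103 CPM across controls and 143, 115, 109 and 92.9 CPM in KO, again highest in KO replicate 1. The 31 tested upstream factors and kinases (SRF, ternary complex factors, CREB, CRTC, MAP kinases and RSK) did not share the library pattern, with averages between -0.03 and 0.05 in all 8 libraries. The edgeR test called 0 of them, with 4 at an unadjusted p under 0.05 between KO and control (11.9% of genes) and 10 in males (17.5% of genes). Within that list Rps6ka3, which encodes RSK2, had a KO log2 fold change of -0.43 (SE 0.0960, edgeR adjusted p = 0.185), and Map2k2, which encodes MEK2, one of 0.31 (SE 0.0710, edgeR adjusted p = 0.196). Those 2 were called by DESeq2, between KO and control (1.01% of genes) and in males (2.7%), and 0 by limma voom.

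The 22 feedback inhibitors, which include other dual-specificity phosphatases, Sprouty and Spred genes, averaged 0.21 in KO replicate 1 and -0.14 and -0.13 in the KO females, but were lowest in control replicate 1, at -0.17, with control replicate 4 at 0.15. The edgeR test and limma voom called 0 of them in the 5 comparisons. DESeq2 called Ier3, Nfkbia or Zfp36 in 4 of the 5, where it called 0.116% to 2.7% of genes. At an unadjusted edgeR p under 0.05 there were 4 between KO and control, against 11.9% of genes. Dusp6, the ERK phosphatase, was at 20.2, 20.9, 20.5 and 18.5 CPM among controls and 21.9, 18.2, 13.2 and 14.4 CPM in KO (log2 fold change of -0.26, SE 0.112, edgeR adjusted p = 0.398). Spred1, an inhibitor of Ras to Raf signalling, was at 16.4, 25.5, 20.7 and 20.4 CPM across controls and at 15.2 to 15.8 CPM in all 4 KO libraries (log2 fold change of -0.42, SE 0.119, edgeR adjusted p = 0.266).

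**Figure D5:**
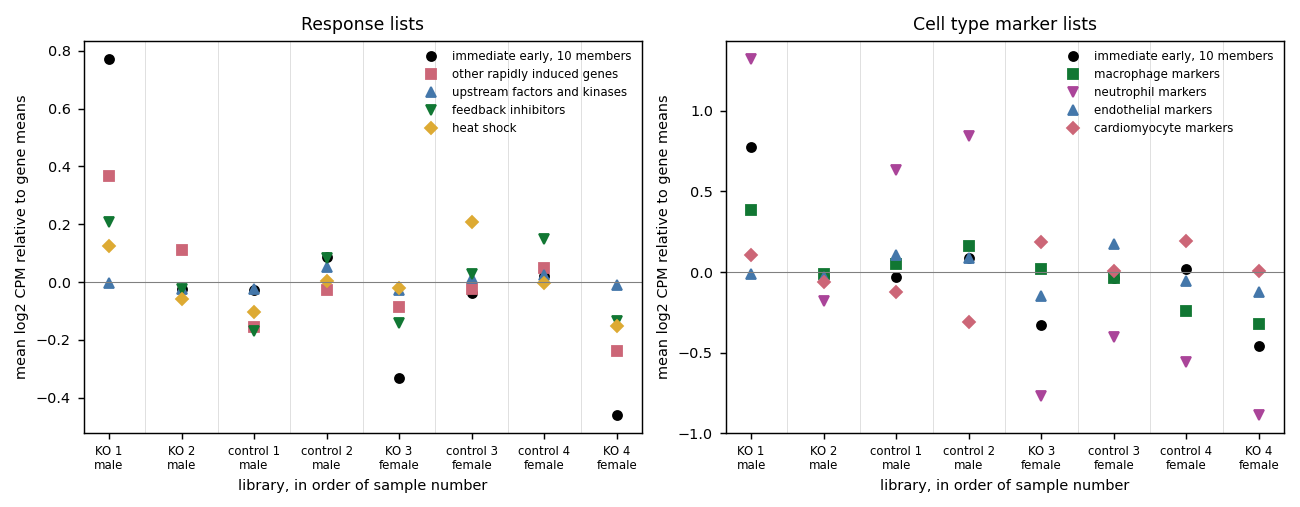
Average log2 CPM of each gene list relative to its genes' means (y axis), by library in the order of the S number (x axis), for response lists (left) and cell type marker lists (right), with the 10 immediate early genes as black circles in both. In KO replicate 1 the members reach 0.77, other rapidly induced genes 0.37, macrophage markers 0.38 and neutrophil markers 1.32, while upstream factors stay near 0.

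Lists that respond to handling, hormones or stress were set beside the members. The 15 heat shock genes averaged 0.12 in KO replicate 1 but were highest in control replicate 3, at 0.21. All 3 tools called 0 of them, with 2 at an unadjusted edgeR p under 0.05 between KO and control, against 11.9% of genes. Averages of the 12 tested cytokine and adhesion genes were highest in KO replicate 1 (0.46) and lowest in KO replicate 4 (-0.34). The edgeR test called 0 of them, with 0 at an unadjusted p under 0.05 within males or within females. DESeq2 called Cxcl1 and Il1b between the sexes, where it called 1.79% of genes. The 13 glucocorticoid-induced genes that are not members averaged 0.39 and 0.42 in the KO males and -0.50 in control replicate 1. Of these, edgeR called Per1 in males and Pdk4 between the sexes (log2 difference 1.29, SE 0.196, edgeR adjusted p = 0.0264). The call of Pdk4 was lost in 4 of 8 fits without 1 library, at an edgeR adjusted p of 0.0711 to 0.141. Those were the fits without control replicate 1 and without KO replicates 2, 3 and 4. It was also lost with total-count scaling (edgeR adjusted p = 0.0505). DESeq2 called 5 of the 13 in males (Cdkn1a, Mt1, Mt2, Per1 and Tsc22d3), where it called 2.7% of genes. It called Cdkn1a between KO and control (1.01% of genes), and Mt2 and Per1 for the difference between sexes (0.116% of genes). The 16 clock genes cycle in different phases, so their average is not a level of the clock, and single genes are given. In males DESeq2 called Arntl, Ciart, Clock, Per1 and Per2 (2.7% of genes), and edgeR Per1 alone (0.0408% of genes). The edgeR log2 fold changes in males were -1.46 for Arntl (SE 0.435) and -0.57 for Clock (SE 0.156), and 1.68 for Ciart (SE 0.286), 0.86 for Per2 (SE 0.171) and 1.45 for Per1. For the difference between sexes DESeq2 called Ciart, Per1 and Per2, against 0.116% of genes. Their part in the members' values was not tested. The 13 hypoxia genes averaged 0.05 in KO replicate 1 and -0.05 in KO replicate 2. The time of day, the mode of killing and the interval to RNA isolation were not given in the sources used here, and their part in the members' values was not tested.

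Macrophage and neutrophil markers, like the members, were highest in KO replicate 1, and lymphocyte markers were not. Summed over the 10 macrophage markers, levels were 304 to 406 CPM among controls and 285 to 473 CPM in KO, highest in KO replicate 1 and lowest in KO replicate 4, and 7 of the 10 were highest in KO replicate 1. The 8 neutrophil markers summed to 3.53 to 9.87 CPM across controls and 2.63 to 13.7 CPM in KO, again highest in KO replicate 1. Only 4 of them passed the filter, and Ly6g, a defining marker, was at 0 in every library, which allows up to 0.0793 to 0.122 CPM per library (3 counts, counting error only). The lymphocyte markers, 4 of which were tested, summed to 7.61 to 13.5 CPM across controls and 7.70 to 12.9 CPM in KO, highest in control replicate 1. Of the macrophage and neutrophil lists, Csf1r alone was called by edgeR in any of the 5 comparisons, as higher in males (log2 difference 0.43, SE 0.0677, edgeR adjusted p = 0.0325), a call lost without any 1 library except control replicate 3 (adjusted p = 0.0880 to 0.167) and with total-count scaling (0.0757). DESeq2 called Cd14, Csf1r, Csf3r and S100a9 between the sexes, where it called 1.79% of genes. Their part in the members' values was not tested.

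Erythroid markers summed to 59.7 to 234 CPM among controls and 58.8 to 314 CPM in KO, with KO replicate 1 highest and KO replicate 3 lowest. The 12 cardiomyocyte markers summed to 71140 to 88308 CPM over the libraries. Endothelial markers summed to 1019 to 1232 CPM across controls and 967 to 1062 CPM in KO, highest in control replicate 3. Fibroblast markers averaged -0.17 in KO replicate 1 and were highest in control replicate 4, which also held the most atrial marker RNA (6333 CPM, against 410.3 to 1553 CPM in the other 7). Fos, but no other member, was highest in that library.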

How the data were processed

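Left ventricular RNA of 8 mice was sequenced. Per the labels' protocols, a stranded TruSeq mRNA kit was used. The authors deposited raw read counts per gene, 1 file per library, with 55487 Ensembl identifiers and 5 summary entries. STAR, HTSeq, DESeq2 and the build GRCm38 are named in the submitters' processing notes, while tool versions, annotation release and strand handling in counting were not given in the sources used here. Summary entries entered neither library sizes nor tests. They held 16.8% to 20.3% of tallied reads as multiply mapped. Such reads are uncounted, which lowers genes with near-identical copies.

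Symbols came from GENCODE M21 for 55141 identifiers. The count tables were fitted with edgeR 4.0.16 (R 4.3.3), with TMM scaling, filterByExpr by genotype (14695 genes kept) and the quasi-likelihood test, with sex as an additive term. Male, female and interaction contrasts used a model of the 4 sex by genotype means. Adjustment of p-values was by Benjamini-Hochberg over all genes tested, with a threshold of 0.05. The SE of an edgeR estimate was computed back from its test, as the absolute log2 fold change over the square root of the F statistic. CPM use TMM-scaled library sizes, and averages and correlations use log2 CPM with a prior count of 2. The thinnest member value rests on 61 reads (Fosb), where counting error alone is 12.8% of the level. Alternatives were DESeq2 1.42.0, limma voom (limma 3.58.1), other scalings, prior counts and filters, a fit without sex, a replicate block, an adjusted p of 0.1 and omission of each library. The fits were also run on simulated counts with planted changes, where only recovery of the largest change between KO and control was required. How often changes as small as those of the members were recovered is not given here.

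The members and lists were chosen with earlier results of these data known. All 10 members are named, with the 10 most and 5 least alike genes at 5 CPM or more, and from each companion list the called genes or up to 4 with the smallest p between KO and control. Of the companion genes so chosen, those that bear on the members are printed, and genes outside that rule (those DESeq2 called, and Jund's library values) were picked after their values were seen.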

Additional observations from a re-analysis of the deposited data

Results flagged for a closer look

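In 2 of the 20 groups of 4 libraries examined (10 genes in control and KO), 1 library lay far from the other 3, and in both it was KO replicate 1. For Junb in KO the gap between the highest library and the next took 0.928 of the range of the group, and for Egr1 in KO 0.949, above the critical value of 0.829 for 4 values. Chance alone passes this value in about 1 of 20 groups.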

How the results depend on the processing

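Calls depended on the tool and the filter. DESeq2 called 1 member in males, 1 in females, 1 for the difference between sexes and 1 between the sexes, where edgeR called 0. With no filter on low counts edgeR called 4, 4, 5 and 5 members, against 3.6%, 0.991%, 0.869% and 2.65% of 27953 genes. Most members had a smaller SE in that fit, for Egr1 in males 0.132 in place of 0.498. There the SE was near equal for Junb, Egr1, Ier2 and Nr4a1, so those calls followed little of each gene's own spread between libraries. The cause was not tested. Between KO and control 0 members were called under every setting run. Of 45 pairs, 0 passed by Spearman's rho where 2 passed by Pearson's r, whose median ran from 0.31 (without KO replicate 1) to 0.74 with single libraries left out.

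The number of members with a wider spread in KO ran from 4 (without KO replicate 1) to 9 with single libraries left out, an alternative chosen after seeing the data. Between the sexes the median of the members ran from 0.10 (without KO replicate 1) to 0.51.

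KO against control estimates ran from -0.42 (Fos) to 0.35 (Fosb), and all but those of Fosb and Btg2 turned sign in some setting. With single libraries left out Fosb stayed at 0.16 to 0.46 and Btg2 at -0.34 to -0.12. The other estimates then ran from -0.77 to 0.063 for Fos, -0.11 to 0.14 for Jun, -0.084 to 0.38 for Junb and -0.70 to 0.18 for Egr1. They ran from -0.14 to 0.16 for Ier2, -0.20 to 0.17 for Dusp1, -0.40 to 0.067 for Atf3 and -0.16 to 0.46 for Nr4a1. Egr1 was 0.11 without the sex term, and Dusp1 -0.0005973 by limma voom and -0.014 with total-count scaling. In males the ranges were -0.36 to 0.56 for Fos, -0.085 to 1.01 for Junb, -0.92 to 1.12 for Egr1, -0.11 to 0.58 for Ier2 and -0.14 to 0.20 for Btg2, each at its lowest without KO replicate 1 except Btg2, which was lowest without control replicate 1. For the difference between sexes they were -0.16 to 0.51 for Fosb, -0.00289 to 1.09 for Junb and -0.35 to 1.69 for Egr1. Between the sexes Atf3 ran from -0.40 to 0.051 and Btg2 from -0.058 to 0.15, with Btg2 at -0.032 under total-count scaling.

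Replicate numbers do not pair the animals by any label, and deviations of same-numbered libraries correlated at 0.25, 0.09, -0.21 and 0.09. With the replicate number as a block in place of sex, 0 members were called, their median was 0.00889, Dusp1 was at -0.0033 and calls over all genes went from 15 to 0.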
